A study of Mus musculus with 6 samples.

Results

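Translation initiation and elongation factors are the proteins that load messenger RNA onto the ribosome, find the start codon and then feed aminoacyl-tRNAs into the growing chain. Their transcripts were picked by gene name from the deposited table: every name that begins with EIF1 to EIF6, apart from the eIF2 kinases and a gene on the Y chromosome, and every name that begins with EEF1 or EEF2. This gave 66 of 20036 genes. The list holds the factors themselves and also the inhibitors, kinase and methyltransferases named after them. Of the 66 genes, 61 passed the filter on low counts and were tested. The other 5 were EEF1G, EIF4E1B, EIF4EBP3 and the read-through genes EEF1E1-BLOC1S5 and EEF1AKMT4-ECE2.

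The cells were THP-1, an established line from a human monocytic leukaemia, turned into macrophages with the phorbol ester PMA at 100 ng/ml for 48 h in the lower well of a Transwell plate. The 3 melittin libraries come from such macrophages kept for 48 h below tumour cells with melittin, the lytic peptide of bee venom, at 3 µg/ml. The 3 control libraries are labelled NC, and the treatment of their wells, tumour cells included, is not stated, so melittin and co-culture cannot be told apart. THP-1 is a single cell line, nothing in the labels tells separate cultures, and p-values measure only how far these libraries differ from each other, perhaps for technical reasons.

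Initiation starts when eIF2, carrying the initiator tRNA and GTP, joins the small ribosomal subunit together with eIF1, eIF1A, eIF3 and eIF5. The eIF4F complex (cap-binding eIF4E, scaffold eIF4G and helicase eIF4A) brings the messenger RNA, and 4E-binding proteins block it by occupying eIF4E. In elongation eEF1A delivers aminoacyl-tRNAs and eEF2 moves the ribosome along by a codon. Many of these factors, eEF1A and eEF2 above all, are encoded by messenger RNAs with a pyrimidine tract at their start whose translation depends on mTOR. Phosphorylation of the eIF2 alpha subunit under stress turns eIF2 into an inhibitor of its exchange factor eIF2B.

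The libraries held 16001423 to 19597781 counts in genes. Levels are given as CPM (counts-per-million values) after TMM scaling, which balances the bulk of genes between libraries, or as FPKM (counts scaled to deposited gene length and library total) where levels of different genes are compared. Of 10 macrophage markers CD68 had 1 count in all and LYZ was low (4.3 CPM in controls), while SPI1 (281.9 CPM) and FCER1G (361.5 CPM) were well detected. The summed level of the 10 was 2358 to 2374 CPM of library totals in controls and 1430 to 1443 with melittin. After TMM scaling CSF1R (722.2 to 235.1 CPM), CD14, PTPRC and LYZ passed a test against 1.5-fold as lower and ITGAM as higher. SPI1 (281.9 to 291.4 CPM) did not pass an adjusted p under 0.05. TYROBP (97.1 to 114.2 CPM) and FCER1G (361.5 to 386.4 CPM) were higher and LAMP1 (285.9 to 272.7 CPM) lower. With library totals alone SPI1, FCER1G and LAMP1 were lower and TYROBP did not pass. Of 11 epithelial and prostate markers EPCAM, KRT18, KRT19, KLK2 and TMPRSS2 had 0 counts in each library; the other 6, some of them detected, are not described here. The part of the macrophage marker shift in the results was not tested, and in bulk RNA fewer cells of a type and less RNA per cell cannot be told apart.

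Taken as a share of each library, the 66 genes made up 2.16 to 2.18% of each control library and 2.63 to 2.66% of each melittin library. EEF1A1 and EEF2, the main elongation factors, carried this gain. Together they took 1.16, 1.17 and 1.16% of the counts in controls and 1.74, 1.73 and 1.71% with melittin. The other 64 genes together took 1.01, 1.01 and 1.01% in controls and 0.922, 0.923 and 0.919% with melittin, so their summed share was lower in each melittin library. EEF1A1 alone held 45.4 to 45.7% of the counts of the 66 genes in controls and 55.6 to 56.1% with melittin.

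Differences were tested on counts with the edgeR quasi-likelihood test after TMM scaling. At an adjusted p under 0.05, 51 of 61 tested genes passed, 83.6%, where 76.4% of all 12029 tested genes passed. Of these, 31 were higher with melittin (50.8% of those tested, against 38.1% of all genes) and 20 lower (32.8%, against 38.3%). The median log2 fold change was 0.15, beside −0.01 over all tested genes. Most changes were small: 29 of the 51 were below 1.5-fold. A test against 1.5-fold was passed by 13 genes, 21.3% against 29.1% of all genes. Of these EEF1A1, EEF1A2, EEF2, EIF1AD, EIF1B, EIF2S2, EIF3F, EIF3G, EIF3H and EIF4B were higher (all genes 14.6%) and EIF3J, EIF4G2 and EIF5A2 were lower (all genes 14.4%). The ranges of the 3 libraries of each group were apart in 51 genes, 83.6% against 77.4% of all genes.

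Scaling by library totals alone moved all genes down nearly alike. Of the 61 members 22 were then higher (36.1%, against 26.3% of all tested genes) and 26 lower (42.6%, against 51.9%). The median of the members was then −0.08 and that of all tested genes −0.24, so the members' median was 0.16 above that of all genes with either scaling. Among the called genes, 6 then had the opposite sign: EEF1B2, EIF3K, EIF4A3, EIF4E, EIF4E2 and EIF4G3. Of the 13 genes past 1.5-fold, EEF1A2 and EIF1B stayed past it as higher and EIF3J, EIF4G2 and EIF5A2 as lower, while EEF2K, EIF1AX, EIF2B3, EIF2S1, EIF4ENIF1 and EIF5 joined the lower side (all genes 9.39% higher and 23% lower). Ratios between genes of a library, given below for several complexes, do not depend on the scaling.

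**Figure D1:**
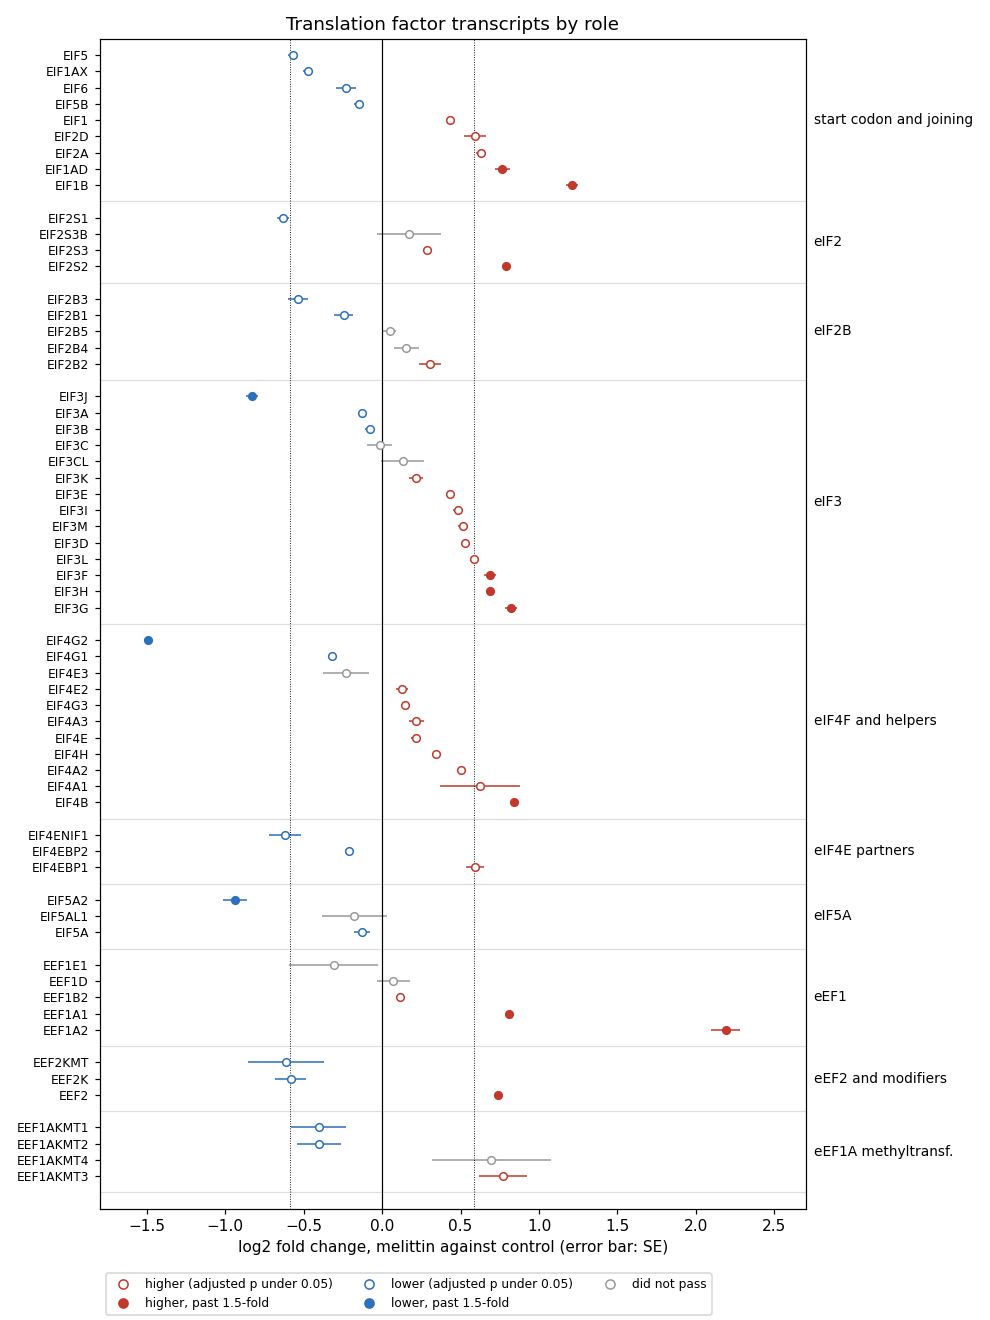
Log2 fold change of each of the 61 tested genes (x axis, melittin against control, error bar SE), grouped by role; red is higher and blue lower at an adjusted p under 0.05, filled points also pass the test against 1.5-fold (dotted lines) and grey points did not pass. EEF1A2 at 2.19 and EIF4G2 at −1.49 are the extremes, and most roles hold points on both sides of 0.

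**Figure D2:**
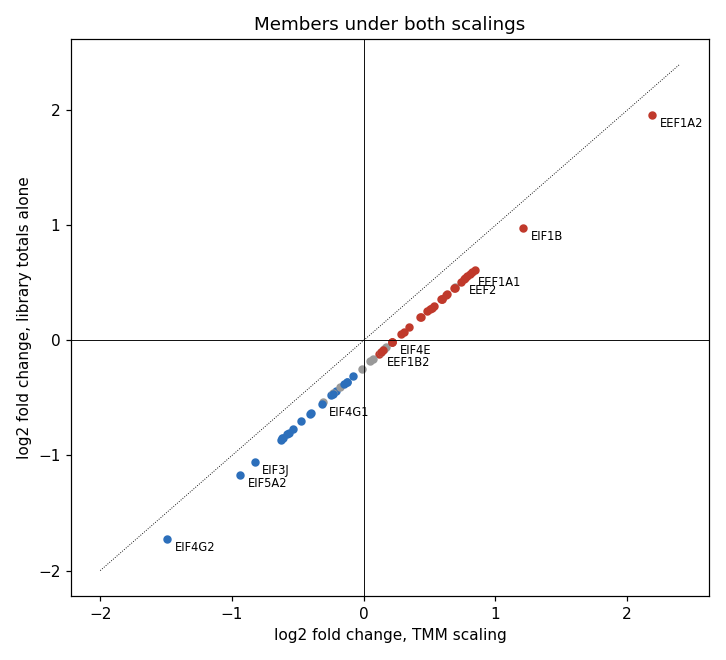
Log2 fold change of each tested gene with TMM scaling (x axis) against library totals alone (y axis); colours mark the call with TMM (red higher, blue lower, grey not passed) and the dotted line marks equal values. The points lie below the line by nearly the same amount, so genes near 0 such as EEF1B2 (0.11 and −0.12) change sign while EEF1A1 and EIF4G2 keep theirs.

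Among the elongation factors, both forms of eEF1A and eEF2 rose with melittin. EEF1A1 (chromosome 6, 73489308 to 73525587, minus strand, GRCh38), the ubiquitous form of eEF1A, was at 9065, 9166 and 9186 CPM in controls and 16095, 16134 and 15863 CPM with melittin. All melittin libraries lay far above all controls. The log2 fold change was 0.81 (SE 0.013, edgeR adjusted p = 1.4e-27), and 0.58 with library totals alone. At 983 ± 6.41 FPKM in controls and 1470 ± 15.1 with melittin (SD, n = 3), EEF1A1 was the most abundant member per length in both groups. EEF1A1 has many processed copies in the genome, and how reads shared with them were counted is not given in the sources used here.

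EEF1A2 (chromosome 20, 63488013 to 63499239, minus strand), the form best known from muscle and neurons, was low in controls at 6.05, 6.69 and 6.18 CPM. With melittin it reached 27.7, 27.7 and 31.2 CPM, with no overlap between groups. This was the greatest fold change of the tested members, 4.56-fold (log2 2.19, SE 0.0938, edgeR adjusted p = 8.1e-18). Counts per library were 107 to 142 in controls and 426 to 498 with melittin. Even so, EEF1A2 made up 0.144% ± 0.00713 of the summed FPKM of both forms in controls and 0.374% ± 0.0293 with melittin, so EEF1A1 remained nearly the whole of eEF1A transcript.

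EEF2 (chromosome 19, 3976056 to 3985463, minus strand), the translocase, was at 1602, 1598 and 1579 CPM in controls and 2669, 2610 and 2690 CPM with melittin. The groups were widely apart, with a log2 fold change of 0.74 (SE 0.019, edgeR adjusted p = 7.11e-23). Its regulators went the other way. EEF2K, the kinase that inactivates eEF2, was at 17, 16 and 14.2 CPM in controls and 10.3, 11.1 and 10.1 CPM with melittin, a log2 fold change of −0.58 (SE 0.0983, edgeR adjusted p = 6.51e-06). EEF2KMT, which methylates eEF2, was at 2.51, 3.3 and 4.33 CPM in controls and 2.28, 2.78 and 1.41 CPM with melittin. Its groups overlapped, and its log2 fold change of −0.61 (SE 0.24, edgeR adjusted p = 0.0231) did not pass without control replicate 3 (adjusted p = 0.159) or melittin replicate 3 (adjusted p = 0.144).

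Of the exchange factor that reloads eEF1A with GTP, the EEF1B2 transcript did not follow EEF1A1, and the other subunits are listed at low values or 0. EEF1B2, the catalytic beta subunit of this factor, was at 286, 284 and 296 CPM in controls and 304, 315 and 318 CPM with melittin. The log2 fold change was 0.11 (SE 0.0274, edgeR adjusted p = 0.000484), and it was −0.12 (adjusted p = 0.00036) with library totals alone and −0.21 after removal of the length trend. The FPKM ratio of EEF1A1 to EEF1B2 was 6.03 ± 0.118 in controls and 9.77 ± 0.297 with melittin (SD, n = 3). This is the first of 6 such ratios, whose pairs were chosen after the values were seen. In each the groups did not overlap. The exact two-sided permutation test gave p = 0.1 for each, also after adjustment over the 6, the smallest p that 3 against 3 allows. With pairs chosen this way, that p says nothing beyond the lack of overlap. EEF1D, the delta subunit, was at 16.1 ± 1.03 and 16.9 ± 3.13 CPM (log2 fold change 0.07, edgeR adjusted p = 0.539), and passed as higher without melittin replicate 1 (adjusted p = 0.0397). EEF1E1, a scaffold of the aminoacyl-tRNA synthetase complex despite its name, was at 1.57 ± 0.141 and 1.26 ± 0.245 CPM (log2 fold change −0.31, edgeR adjusted p = 0.321). EEF1G, the gamma subunit, is listed at 0 in each library, where 3 counts correspond to 0.153 to 0.187 CPM of library totals.

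Methylation of eEF1A on lysines is the work of a small group of enzymes, and the 4 of them in the list were low here. Enzymes of this group under other names were not looked at. EEF1AKMT2, EEF1AKMT3 and EEF1AKMT4 each overlap another gene on the same strand, over 43579, 9882 and 9065 bases. EEF1AKMT3 was at 4.23, 6.26 and 4.04 CPM in controls and 8.91, 8.35 and 7.77 CPM with melittin, with no overlap (log2 fold change 0.77, SE 0.15, edgeR adjusted p = 4.45e-05). EEF1AKMT2 was at 5.9, 5.89 and 6.53 CPM in controls and 4.75, 4.34 and 4.76 CPM with melittin, a log2 fold change of −0.40 (SE 0.142, edgeR adjusted p = 0.0124). EEF1AKMT1 was at 5.12, 4.29 and 4.1 CPM in controls and 2.93, 4.01 and 3.22 CPM with melittin. Its log2 fold change was also −0.40 (SE 0.177, edgeR adjusted p = 0.0408), a call that ended with DESeq2 (adjusted p = 0.0991) and without control replicate 1 (0.18), melittin replicate 1 (0.135) or melittin replicate 3 (0.0922). EEF1AKMT4 had 8 to 27 counts per library and overlapping groups (log2 fold change 0.70, edgeR adjusted p = 0.0973), and passed as higher without melittin replicate 1 (adjusted p = 0.0144).

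**Figure D3:**
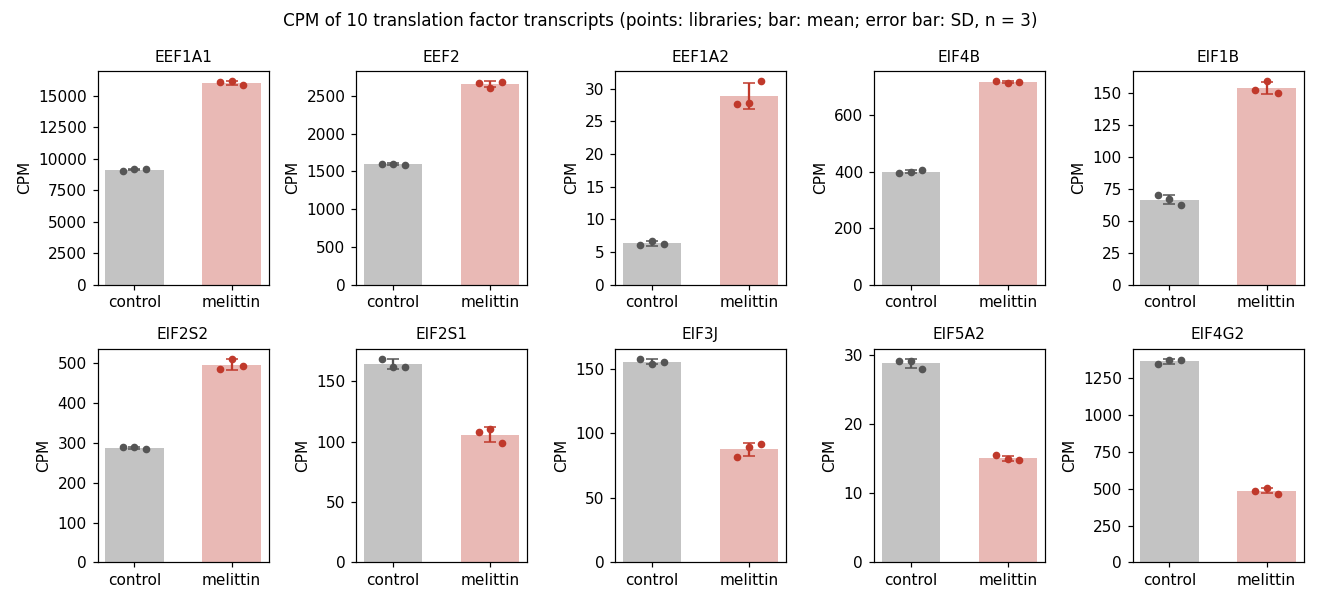
CPM of 10 genes in control (grey) and melittin (red) libraries; points are libraries, bars the mean and error bars the SD of 3, and each panel has its own y axis from 0. EEF1A1, EEF2, EEF1A2, EIF4B, EIF1B and EIF2S2 are higher and EIF2S1, EIF3J, EIF5A2 and EIF4G2 lower with melittin, with no overlap of points in any panel.

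Among the genes listed with eIF4F and its helpers, the largest change was a fall of EIF4G2. It encodes DAP5 (also p97), a relative of eIF4G that lacks the eIF4E-binding part and serves cap-independent and alternative initiation. EIF4G2 (chromosome 11, 10797050 to 10808940, minus strand) was at 1349, 1378 and 1377 CPM in controls and 487, 503 and 468 CPM with melittin. The melittin libraries were all below the controls, 2.81-fold lower on average (log2 −1.49, SE 0.0249, edgeR adjusted p = 3.33e-27; −1.72 with library totals alone). In controls EIF4G2 was at 175 ± 2.01 FPKM, the third most abundant member per length after EEF1A1 and EEF2, and with melittin at 52.8 ± 1.9 FPKM. EIF4G2 overlaps CTR9 over 4576 bases on the opposite strand, and CTR9 had 6046 counts over the 6 libraries against 104010 for EIF4G2. The strand setting of the counting is not given, and the part of opposite-strand overlaps in the values of this and other members was not tested.

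EIF4G1, the main eIF4G scaffold, fell less, from 488.8 ± 3.04 to 391.9 ± 4.78 CPM (log2 −0.32, edgeR adjusted p = 2.99e-12). EIF4G3 went from 207.9 ± 2.38 to 230.1 ± 1.47 CPM, a rise with TMM scaling (log2 0.15) and a fall with library totals alone (−0.08, adjusted p = 0.0073). The make-up of the eIF4G transcripts shifted accordingly. EIF4G2 held 68.3, 69.0 and 68.9% of their summed FPKM in controls and 47.1, 48.2 and 46.2% with melittin, while EIF4G1 went from 23.8% ± 0.302 to 36.9% ± 0.895 and EIF4G3 from 7.46% ± 0.109 to 15.9% ± 0.201 (SD, n = 3). EIF4G2 was thus the larger share in both groups, and EIF4G3 had the larger share gain relative to its control share.

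EIF4B, an RNA-binding cofactor of the helicase that is a known target of S6 kinase, rose. EIF4B (chromosome 12, 53006282 to 53042215, plus strand) was at 395, 400 and 407 CPM in controls and 721, 715 and 720 CPM with melittin, with no overlap (log2 fold change 0.84, SE 0.0237, edgeR adjusted p = 5.45e-22). EIF4H, a shorter factor with a related role, went from 326 ± 7.02 to 413.5 ± 5.31 CPM (log2 0.34). The FPKM ratio of EIF4B to EIF4H was 1.18 ± 0.0143 in controls and 1.68 ± 0.0248 with melittin.

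Of the helicases, EIF4A2 was at 299, 289 and 288 CPM in controls and 413, 417 and 411 CPM with melittin (log2 fold change 0.50, SE 0.0258, edgeR adjusted p = 4.52e-16). EIF4A3, the eIF4A-like core of the exon junction complex, was at 67 ± 1.88 and 77.7 ± 5.35 CPM (log2 0.22), and did not differ with library totals alone (−0.01, adjusted p = 0.794). EIF4A1, usually the most abundant eIF4A, had 199 counts in all and is listed at 1.48 ± 0.255 CPM in controls and 2.31 ± 0.488 with melittin. This gene lies over 5892 bases under the read-through gene SENP3-EIF4A1 (5 counts) on the same strand. Its log2 fold change of 0.62 (SE 0.256, edgeR adjusted p = 0.0297) did not pass with DESeq2 (adjusted p = 0.0677), with library totals alone (0.162), or without control replicate 2 (0.0619), control replicate 3 (0.108) or melittin replicate 1 (0.164). As deposited, EIF4A2 made up 80.0% ± 0.223 of the FPKM of the 3 genes in controls and 83.0% ± 0.869 with melittin.

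EIF4E itself, the cap-binding protein, changed little. It was at 269, 249 and 282 CPM in controls and 302, 311 and 316 CPM with melittin, a log2 fold change of 0.22 (SE 0.0333, edgeR adjusted p = 1.48e-06) that was −0.01 with library totals alone (adjusted p = 0.713). EIF4E2, which competes for caps and acts mainly as a repressor, was at 99.0 ± 2.18 and 108.1 ± 4.16 CPM (log2 0.13; −0.10 with library totals alone). EIF4E3 was at 6.21 ± 0.548 and 5.34 ± 0.788 CPM (edgeR adjusted p = 0.153), and passed as lower with library totals alone (−0.46, adjusted p = 0.00557). EIF4E1B, an oocyte form, is listed at 0. EIF4E held 85.3% ± 0.67 of the FPKM of EIF4E, EIF4E2 and EIF4E3 in controls and 86.3% ± 0.617 with melittin.

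The inhibitors of eIF4E changed in opposite directions with both scalings, though the rise of EIF4EBP1 was lost with the length trend removed. EIF4EBP1 was at 34.7, 34.9 and 34.3 CPM in controls and 52.4, 49.5 and 55.1 CPM with melittin, with no overlap (log2 fold change 0.59, SE 0.0555, edgeR adjusted p = 2.11e-10). At a deposited length of 880 bases it is the shortest of the tested members, and after removal of the length trend the value was 0.04 (adjusted p = 0.548). EIF4EBP2 was at 260, 267 and 256 CPM in controls and 226, 222 and 230 CPM with melittin (log2 fold change −0.21, SE 0.028, edgeR adjusted p = 1.8e-07). Per length EIF4EBP1 held 53.0% ± 0.401 of the 4E-BP transcripts in controls and 66.2% ± 0.892 with melittin. The FPKM ratio of EIF4EBP1 to EIF4E was 0.736 ± 0.0522 in controls and 0.954 ± 0.0471 with melittin. Neither the share nor this ratio takes out the length trend. With that trend removed the log2 fold change was 0.21 for EIF4E, above that of EIF4EBP1, and −0.16 for EIF4EBP2. EIF4EBP3 had 7 counts in all and was not tested. EIF4ENIF1, which shuttles eIF4E into the nucleus and into P-bodies, was at 13.7, 13.3 and 15.1 CPM in controls and 8.19, 9.46 and 9.72 CPM with melittin (log2 fold change −0.62, SE 0.104, edgeR adjusted p = 5.8e-06). It overlaps DRG1 over 59132 bases on the opposite strand, and DRG1 had 5182 counts over the libraries against 1265 for EIF4ENIF1.

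In all, 8 of 11 tested eIF4F genes and helpers were higher with TMM scaling (72.7%, against 38.1% of all genes) and 2 lower (18.2%, against 38.3%). The median log2 value was 0.22. With library totals alone 3 were higher (27.3%, against 26.3%) and 5 lower (45.5%, against 51.9%), near the shares of all genes, with a median of −0.01. The group's median was 0.22 above that of all tested genes with either scaling. EIF4G2 was lower and EIF4B higher with both.

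**Figure D4:**
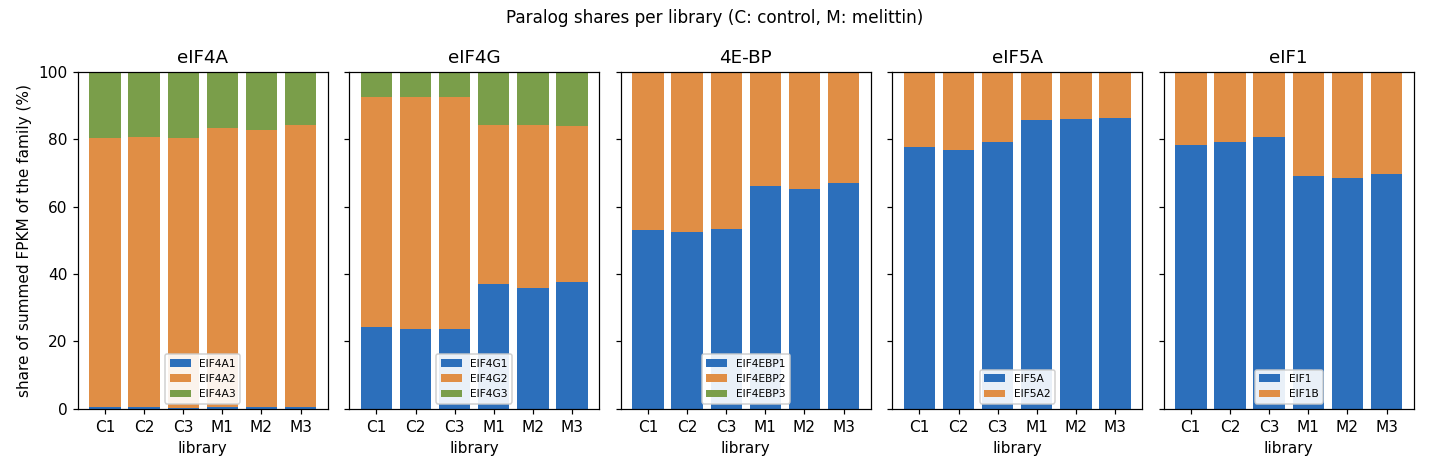
Share of each gene in the summed FPKM of its family (y axis, percent) in control (C1 to C3) and melittin (M1 to M3) libraries for 5 families. The eIF4G, 4E-BP, eIF5A and eIF1 bars change between groups by more than they vary within a group: EIF4G2 goes from 68.7% to 47.2%, EIF4EBP1 from 53.0% to 66.2%, EIF5A from 77.9% to 86.1% and EIF1B from 20.6% to 30.8%. EIF4A2 goes from 80.0% to 83.0%, a smaller change that also exceeds the variation within each group. EIF4A1 is listed with only 199 counts in all, so the eIF4A bars as deposited mainly set EIF4A2 against EIF4A3.

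The subunits of eIF2 did not move together. EIF2S1 (chromosome 14, 67360328 to 67386516, plus strand), the alpha subunit that stress kinases phosphorylate, was at 169, 162 and 162 CPM in controls and 108, 111 and 98.8 CPM with melittin, with no overlap (log2 fold change −0.63, SE 0.0373, edgeR adjusted p = 1.16e-14). EIF2S2 (chromosome 20, 34088309 to 34112243, minus strand), the beta subunit that contacts eIF5 and eIF2B, was at 291, 289 and 285 CPM in controls and 486, 512 and 493 CPM with melittin (log2 fold change 0.79, SE 0.0263, edgeR adjusted p = 2.77e-20). With the length trend removed the EIF2S2 value was 0.57, and the test against 1.5-fold was no longer passed. EIF2S2 overlaps RALY over 20000 bases on the opposite strand, and RALY had 11819 counts over the libraries against 41002 for EIF2S2. EIF2S3, the GTP- and tRNA-binding gamma subunit, was at 227, 229 and 236 CPM in controls and 286, 284 and 275 CPM with melittin. Its log2 fold change of 0.29 (SE 0.0277, edgeR adjusted p = 3.68e-10) did not pass with library totals alone (0.06, adjusted p = 0.0703). The ratio of beta to alpha transcript in FPKM was 3.59, 3.71 and 3.67 in controls and 9.39, 9.62 and 10.4 with melittin, and that of gamma to alpha 1.84 ± 0.0722 and 3.47 ± 0.143. EIF2S3B, a near copy of EIF2S3, was at 2.83 ± 0.412 and 3.22 ± 0.646 CPM (edgeR adjusted p = 0.452), and reads that fit both genes cannot be assigned with certainty.

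Of the subunits of eIF2B, the factor that recharges eIF2 with GTP, EIF2B3 and EIF2B1 fell and EIF2B2 rose. EIF2B3, in the catalytic part of the complex, was at 33.3, 33.4 and 32.6 CPM in controls and 22, 23.2 and 23.3 CPM with melittin (log2 fold change −0.54, SE 0.0653, edgeR adjusted p = 3.13e-08). EIF2B1, in the regulatory part, was at 32.3, 31.8 and 31.7 CPM in controls and 27.3, 26.9 and 26.7 CPM with melittin (log2 fold change −0.25, SE 0.0627, edgeR adjusted p = 0.000968). EIF2B2, also regulatory, was at 22.7, 21.6 and 22.5 CPM in controls and 28.7, 26.7 and 27.3 CPM with melittin (log2 fold change 0.31, SE 0.0697, edgeR adjusted p = 0.000277), a call that ended with library totals alone (0.08, adjusted p = 0.321). EIF2B5, the catalytic subunit and the most abundant per length of the 5 at 11.1 ± 0.267 FPKM in controls, was at 72.6, 75.6 and 72.6 CPM and 77.3, 76.3 and 75.1 CPM, with overlapping groups (log2 fold change 0.05, SE 0.0414, edgeR adjusted p = 0.279), and it passed as lower with library totals alone (−0.18, adjusted p = 0.000287). EIF2B4 was at 20.5 ± 1.04 and 22.9 ± 2.06 CPM (edgeR adjusted p = 0.0815) and passed without melittin replicate 2 (0.0346).

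The eIF3 complex, the large scaffold that holds the small ribosomal subunit during initiation, had more higher than lower transcripts. Of 14 tested genes 9 were higher (64.3%, against 38.1% of all genes) and 3 lower (21.4%, against 38.3%), with a median log2 of 0.46. With library totals alone 8 were higher (57.1%, against 26.3%) and 4 lower (28.6%, against 51.9%), with a median of 0.23. The strongest rises were in EIF3G, EIF3H and EIF3F, and the strongest fall was in EIF3J. EIF3G (chromosome 19, 10115014 to 10119918, minus strand), an RNA-binding subunit, was at 94.6, 85.2 and 89.7 CPM in controls and 160, 157 and 160 CPM with melittin (log2 fold change 0.82, SE 0.0369, edgeR adjusted p = 2.32e-17). EIF3H was at 285, 268 and 274 CPM in controls and 441, 438 and 456 CPM with melittin (log2 fold change 0.69, SE 0.0278, edgeR adjusted p = 1.87e-18). EIF3H and EIF3F share an MPN domain and sit side by side in the complex; EIF3F went from 103.9 ± 5.66 to 167.4 ± 0.21 CPM (log2 0.69). Both genes missed the test against 1.5-fold with library totals alone, as did EIF3G.

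EIF3J, a loosely bound subunit that sits in the decoding site and also helps in recycling, went against most others and fell the most. EIF3J (chromosome 15, 44537125 to 44563029, plus strand) was at 158, 153 and 155 CPM in controls and 82, 89.4 and 91.4 CPM with melittin, 1.77-fold lower with no overlap (log2 −0.83, SE 0.0376, edgeR adjusted p = 3.03e-17). The gene overlaps SPG11 over 8212 bases on the opposite strand, and SPG11 had 7348 counts over the libraries against 13383 for EIF3J. The FPKM ratio of EIF3J to EIF3G was 1.86, 2.01 and 1.93 in controls and 0.573, 0.637 and 0.636 with melittin. EIF3A, the largest scaffold subunit and the most abundant of the complex per length at 98.5 ± 1.49 FPKM in controls, was at 648, 635 and 655 CPM in controls and 608, 572 and 596 CPM with melittin (log2 fold change −0.13, SE 0.0253, edgeR adjusted p = 6.34e-05). EIF3B, the partner of EIF3G and EIF3I, was at 152.3 ± 0.791 and 144.2 ± 2.16 CPM (log2 −0.08, edgeR adjusted p = 0.0222). That call ended with DESeq2 (adjusted p = 0.0764) and without melittin replicate 2 (0.0733), and the value was 0.02 with the length trend removed.

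The remaining eIF3 subunits were grouped between these. EIF3L (log2 0.59), EIF3D (0.53), EIF3M (0.52), EIF3I (0.48) and EIF3E (0.43) were all higher with both scalings. EIF3D, which can bind caps itself on some messages, went from 220.1 ± 6.46 to 317.9 ± 4.65 CPM. EIF3K (log2 0.22, edgeR adjusted p = 8.83e-05) was −0.02 with library totals alone and lost its call with the length trend removed (0.02, adjusted p = 0.678). EIF3C and EIF3CL are near-identical copies on chromosome 16, so their reads cannot be divided with certainty. With TMM scaling neither passed: EIF3C was at 20.9 ± 1.02 and 20.8 ± 1.1 CPM (edgeR adjusted p = 0.855) and EIF3CL at 5.43 ± 0.279 and 5.97 ± 0.507 CPM (edgeR adjusted p = 0.391). With library totals alone EIF3C passed as lower (−0.25, edgeR adjusted p = 0.00543). The 11 other subunits apart from EIF3J ranged from 7.43 to 98.5 FPKM in controls, a 13.3-fold span among parts of a single complex. Deposited gene length enters that span: EIF3E, at 429.5 CPM the second highest by counts, is listed with a length of 37761 bases and so at 12.3 FPKM.

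**Figure D5:**
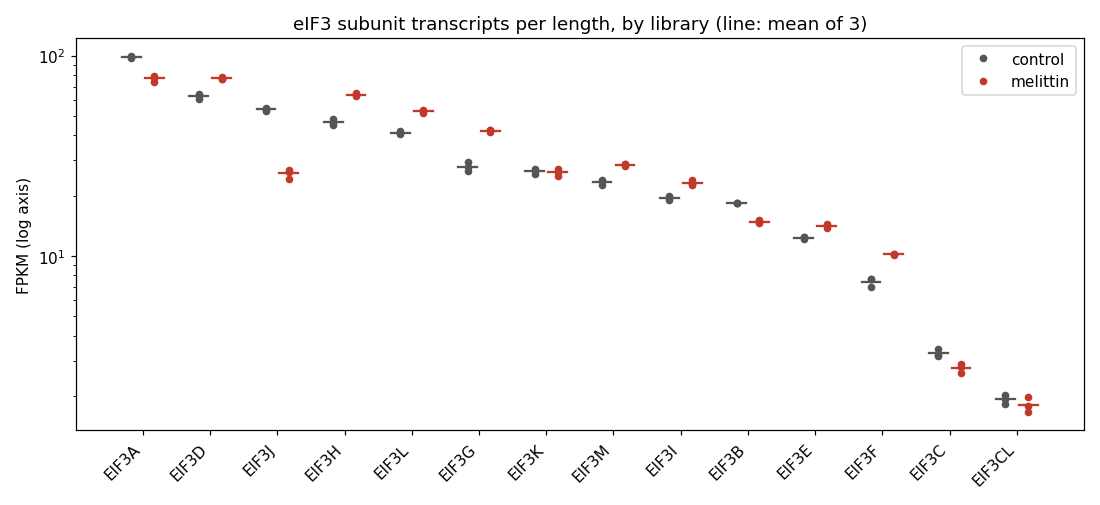
FPKM (log axis) of the 14 eIF3 genes in control (grey) and melittin (red) libraries, ordered by the control mean; points are libraries and lines the mean of 3. EIF3J goes from 53.9 to 25.8 FPKM while EIF3D, EIF3H, EIF3L and EIF3G are higher, and EIF3C and EIF3CL lie lowest. FPKM uses library totals, so the points here follow that scaling.

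Factors that select the start codon and join the subunits split by gene, with 5 of 9 higher (55.6%) and 4 lower (44.4%) under both scalings. Of all genes 38.1% were higher and 38.3% lower with TMM scaling, and 26.3% and 51.9% with library totals alone. EIF1B (chromosome 3, 40309707 to 40312424, plus strand), a close paralog of the start codon gatekeeper EIF1, was at 69.8, 66.9 and 62.8 CPM in controls and 153, 160 and 150 CPM with melittin. The groups were far apart, 2.31-fold (log2 1.21, SE 0.0401, edgeR adjusted p = 2.43e-20). EIF1 was at 485, 486 and 501 CPM in controls and 659, 662 and 665 CPM with melittin (log2 fold change 0.43, SE 0.0236, edgeR adjusted p = 2.05e-15). EIF1 was the most abundant gene of this role per length, at 147 ± 2.41 FPKM in controls, and EIF1B made up 20.6% ± 1.14 of the FPKM of the pair in controls and 30.8% ± 0.731 with melittin.

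EIF5, the GTPase activator of eIF2, fell. It was at 335, 348 and 334 CPM in controls and 226, 231 and 227 CPM with melittin (log2 fold change −0.57, SE 0.0272, edgeR adjusted p = 8.93e-17). EIF1AX, the X-linked eIF1A that works beside eIF1, went from 150.5 ± 0.973 to 108.4 ± 0.944 CPM (log2 −0.47); it has a close homolog outside the list with which reads may be shared. EIF1AD, an eIF1A-like protein of uncertain role in translation, went from 47.2 ± 0.276 to 80.2 ± 4.66 CPM (log2 0.76) and passed 1.5-fold with TMM scaling and not with library totals alone or the length trend removed. EIF2A, an initiator tRNA carrier unrelated to eIF2, was at 129, 128 and 126 CPM in controls and 208, 196 and 188 CPM with melittin (log2 fold change 0.63, SE 0.0342, edgeR adjusted p = 1.65e-15). EIF2D, which acts in recycling and reinitiation, went from 20.9 ± 0.538 to 31.5 ± 1.38 CPM (log2 0.59). EIF2A overlaps SERP1 over 39339 bases on the opposite strand (SERP1 29262 counts, EIF2A 17041). EIF2D overlaps RASSF5 over 18157 bases on the opposite strand (RASSF5 10736 counts, EIF2D 2755). EIF5B, the subunit-joining GTPase, went from 240.3 ± 4.59 to 216.7 ± 3.8 CPM (log2 −0.15), and EIF6, which keeps free large subunits from joining, from 43.0 ± 1.84 to 36.6 ± 3.28 CPM (log2 −0.23).

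Both eIF5A genes were lower with melittin. eIF5A carries the unique amino acid hypusine and helps ribosomes past difficult peptide bonds. EIF5A2 (chromosome 3, 170888418 to 170908644, minus strand), the minor form, was at 29.1, 29.1 and 28 CPM in controls and 15.5, 14.9 and 14.7 CPM with melittin, 1.91-fold lower with no overlap (log2 −0.94, SE 0.075, edgeR adjusted p = 8.17e-12). EIF5A was at 49.2, 46.9 and 51.2 CPM in controls and 45.3, 44 and 45.5 CPM with melittin (log2 fold change −0.13, SE 0.0527, edgeR adjusted p = 0.0318). That call ended with DESeq2 (adjusted p = 0.0876) and without control replicate 1 (0.064), control replicate 3 (0.121) or melittin replicate 2 (0.0974). EIF5AL1, an intronless copy of EIF5A, was at 3.47 ± 0.696 and 3.05 ± 0.722 CPM (edgeR adjusted p = 0.438). EIF5A held 77.9% ± 1.1 of the FPKM of EIF5A and EIF5A2 in controls and 86.1% ± 0.332 with melittin.

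Outside the factors themselves, 57 genes of the same pathway were listed by function, of which 54 were tested, 20 were higher (37%) and 23 lower (42.6%), near the 38.1% and 38.3% of all tested genes. With library totals alone 13 were higher (24.1%, against 26.3% of all genes) and 35 lower (64.8%, against 51.9%). Of 9 genes for eIF2 kinases and the eIF2 alpha phosphatase 6 were higher (66.7%) and 2 lower (22.2%). With library totals alone 5 were higher (55.6%) and 4 lower (44.4%). EIF2AK2, the double-stranded RNA kinase PKR, which is also induced by interferon, fell from 207.1 ± 4.75 to 79.4 ± 1.82 CPM (log2 −1.38, edgeR adjusted p = 2.3e-23), while EIF2AK1, the haem-regulated kinase HRI, rose from 117.1 ± 1.79 to 182.9 ± 1.49 CPM (log2 0.64). PPP1R15B, the constitutive targeting subunit of the phosphatase, rose from 147.4 ± 4.55 to 249.8 ± 5.62 CPM (log2 0.76), and PPP1CA, a catalytic subunit, fell by 0.21 on the log2 scale. PPP1CB and PPP1CC, also catalytic subunits, rose by 0.39 and 0.35.

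Of 14 tested poly(A), cap and helicase cofactors 4 were higher (28.6%, against 38.1% of all genes) and 8 lower (57.1%, against 38.3%). With library totals alone 2 were higher (14.3%, against 26.3%) and 10 lower (71.4%, against 51.9%). MKNK2, a kinase that phosphorylates eIF4E, rose from 205.6 ± 3.26 to 462.7 ± 15.4 CPM (log2 1.17, edgeR adjusted p = 1.71e-23). The related kinase MKNK1 fell from 27.0 ± 1.02 to 14.5 ± 0.645 CPM (log2 −0.90, edgeR adjusted p = 4.5e-11). PABPC4, a poly(A)-binding protein, rose by 0.58 on the log2 scale. The more abundant PABPC1 fell from 2201 ± 14.1 to 1927 ± 50.8 CPM (log2 −0.19, edgeR adjusted p = 1.89e-09). The helicase DDX3X fell from 576.9 ± 5.28 to 443.4 ± 3.84 CPM (log2 −0.38) and LARP1, which binds messages with a pyrimidine tract, from 237.6 ± 1.7 to 188.7 ± 4.99 CPM (log2 −0.33). Initiation partners were even with TMM scaling, with 3 higher and 3 lower of 7 (42.9% each). With library totals alone 1 was higher (14.3%) and 4 lower (57.1%). CDC123, which assembles eIF2, rose by 0.48 and ABCF1 by 0.25 on the log2 scale, the latter not with library totals alone (0.02, adjusted p = 0.713). The reinitiation factor DENR had a log2 fold change of −0.60 and the recycling ATPase ABCE1 of −0.53.

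Of 6 tested genes for termination and rescue 4 were higher (66.7%, against 38.1% of all genes) and 2 lower (33.3%, against 38.3%). With library totals alone 3 were higher (50%, against 26.3%) and 3 lower (50%, against 51.9%). GTPBP2, a rescue GTPase for stalled ribosomes, rose from 146.7 ± 4.4 to 237.3 ± 7.38 CPM (log2 0.69, edgeR adjusted p = 3.51e-17) and its relative GTPBP1 by 0.83 on the log2 scale, while the release factors ETF1 and GSPT1 had log2 fold changes of −0.31 and −0.26. Among 9 genes for hypusine on eIF5A and diphthamide on eEF2, 3 were higher (33.3%) and 2 lower (22.2%). With library totals alone 2 were higher (22.2%) and 5 lower (55.6%). DPH7 rose from 10.9 ± 1.23 to 36.5 ± 3.38 CPM (log2 1.74, edgeR adjusted p = 3.12e-16) and DPH6, which completes the same modification, fell from 2.57 ± 0.178 to 0.996 ± 0.333 CPM (log2 −1.39, edgeR adjusted p = 6.86e-05). DHPS, the first enzyme of hypusine synthesis, was low at 1.13 ± 0.129 and 2.18 ± 0.451 CPM (log2 0.92, edgeR adjusted p = 0.00336). DPH2 had a log2 fold change of −0.19, a call that ended with DESeq2 (adjusted p = 0.0763) and without control replicate 3 (0.113), melittin replicate 1 (0.0564) or melittin replicate 3 (0.0682).

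Factors of mitochondrial translation were not among the genes that rose. Of 9 tested, 0 were higher and 6 lower (66.7%, against 38.3% of all genes), and the median log2 value was −0.26. With library totals alone all 9 were lower, where 51.9% of all genes were. GFM1, the mitochondrial elongation factor G, went from 56 ± 1.34 to 35.9 ± 1.24 CPM (log2 −0.64, edgeR adjusted p = 1.5e-11) and the release factor MTRF1L from 19.6 ± 0.608 to 12.3 ± 0.843 CPM (log2 −0.67). Cytosolic EEF1A1 and EEF2 and mitochondrial GFM1 were thus on opposite sides, and TUFM, the mitochondrial counterpart of eEF1A, did not pass (log2 0.04, edgeR adjusted p = 0.497), though it was lower with library totals alone (−0.19, adjusted p = 0.00129).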

How the data were processed

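RNA from 3 control and 3 melittin libraries was sequenced. The authors deposited raw read counts per gene, with names, lengths and GRCh38 coordinates (build per the submitters' processing notes); the sources used here do not give the aligner, counter, strand setting or annotation. The authors also deposited FPKM, which equal count over gene length and library total within a relative deviation of 2.2e-09. All 20036 identifiers were human although the organism label reads mouse; the mouse sequence tables at hand were not used, and no sequence is shown.

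Counts were fitted with edgeR 4.0.16 in R 4.3.3: filterByExpr (12029 genes), TMM, quasi-likelihood test and glmTreat against 1.5-fold, Benjamini-Hochberg over all tested genes, threshold 0.05. SE is the log2 fold change divided by the square root of F. Levels between genes use FPKM. Alternatives used limma 3.58.1 on log2(FPKM + 0.1) and DESeq2 1.42.0. The biological coefficient of variation was 3.01%. Chi-square per degree of freedom between replicates was 1.73 to 3.92. Each library was treated as 1 replicate, and these values cannot show whether the libraries come from separate cultures. Intervals for 0 counts (3 counts) cover counting error only.

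Members, roles, pathway and marker lists were chosen with earlier results of these data known. Every member is named; per library values and full statistics are given, by role, for the passing members of smallest adjusted p (at most 3) and the most abundant by FPKM, and of each pathway list up to 2 passing genes per direction. The ratios, TUFM, MKNK1, PABPC1, PPP1CB and PPP1CC were chosen after values were seen. The summed level of the epithelial and prostate markers is not reported here.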

Additional observations from a re-analysis of the deposited data

How the results depend on the processing

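For the 61 members and for all tested genes, counts of calls held within 1.5 times of those reported with median-of-ratios size factors, DESeq2, no filter, at least 1 CPM in 3 libraries and the length trend removed. With library totals alone, the genes past 1.5-fold were 2 higher and 9 lower, and the median log2 fold change of the 61 genes was −0.0767; with limma on FPKM they were 2 higher and 7 lower, and −0.0721. FPKM rests on library totals, so these are the same scaling. Of the small lists, the lower hypusine and diphthamide genes went from 2 to 1 with DESeq2, and without control replicate 3, melittin replicate 1 or melittin replicate 3. After removal of the length trend the eEF1 genes called lower went from 0 to 1 and the eIF4E inhibitors called higher from 1 to 0. Among members past 1.5-fold as higher, EIF1AD and EIF2S2 were then lost and EIF3E was gained.

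Single genes changed sign as follows. With library totals alone the log2 values were −0.116 (EEF1B2), −0.16 (EEF1D), −0.0608 (EIF2S3B), −0.0767 (EIF2B4), −0.182 (EIF2B5), −0.0995 (EIF3CL), −0.0162 (EIF3K), −0.0141 (EIF4A3), −0.0136 (EIF4E), −0.103 (EIF4E2) and −0.0845 (EIF4G3). With limma on FPKM they were −0.117, −0.167, −0.0437, −0.0721, −0.179, −0.0933, −0.0168, −0.0189, −0.0133, −0.103 and −0.0843 in the same order. With the length trend removed they were −0.208 (EEF1B2), 0.0189 (EIF3B), 0.0102 (EIF3C) and −0.0357 (EIF3CL). EEF1D was −0.0231 without melittin replicate 2, and EIF3C 0.0229 without control replicate 2 and 0.0252 without melittin replicate 2, its lowest such value being −0.0527 without melittin replicate 3.

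Leaving out each library in turn, 48 to 51 genes passed (30 to 32 higher, 18 to 20 lower), 12 to 14 passed 1.5-fold and the median ran from 0.127 to 0.211. With the replicate number as a block 50 genes passed, EEF1AKMT1 no longer among them (edgeR adjusted p = 0.0596), and no other call of the 61 changed. Deviations of same-numbered libraries from their group means had correlations of −0.0393, −0.0233 and −0.000182. No pairing by number was seen, but with 3 libraries per group and small deviations this check cannot exclude it. Without the 11 genes that overlap another on the same strand, an alternative chosen after seeing the data, 47 of 54 passed (29 higher, 18 lower). The tested members with the fewest counts over the 6 libraries were EEF1AKMT4 (96), EEF1E1 (153) and EIF4A1 (199).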

Other observations

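Several members that overlap another gene on the same strand are listed at or near 0 in this table. EEF1G had 0 counts in the 6 libraries and overlaps an unnamed gene (2 counts) over 14484 bases on the same strand. EIF4A1 had 199 counts in all, under the read-through gene SENP3-EIF4A1 with 5. EEF1E1 had 153 counts and lies over 29171 bases with EEF1E1-BLOC1S5 (0 counts), and EIF4EBP3 had 7 beside ANKHD1-EIF4EBP3 with 91. The 11 members with a same-strand overlap, among them the 2 read-through genes at 0, had a median of 153 counts summed over the libraries, and the 55 others a median of 14092. Low values also occurred without such an overlap, as in EEF1D (1.86 ± 0.12 FPKM in controls) and EIF3C (3.27 ± 0.16). EIF6, which overlaps an unnamed gene over 1137 bases, was the highest of the 11 at 4302 counts. The part of the counting in these low values was not tested, and the eEF1B and eIF4A levels given above do not stand for those of the complexes.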
